A study of Mus musculus with 18 samples.

Results

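The genes described here encode the protein subunits of the cytosolic ribosome. They were chosen by symbol: protein-coding genes on chromosomes 1 to 19 named Rpl or Rps followed by digits and at most 1 letter A, a or x, together with Rpsa, Rplp0, Rplp1 and Rplp2, and without pseudogenes or S6 kinases. The rule found 72 genes among 20665 protein-coding autosomal genes, 43 of the large subunit and 29 of the small subunit. They lay on 18 of the 19 autosomes, with 14 on chromosome 7. Their annotated spans were short, with a median of 3179 bp, from 982 bp for Rps27 to 11774 bp for Rps15a, against a median of 17491 bp over all genes.

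The cytosolic ribosome is built from a small subunit, which reads the mRNA, and a large subunit, which joins amino acids. Its protein genes are among the most strongly transcribed in growing cells, and many of their mRNAs begin with a run of pyrimidines, the terminal oligopyrimidine (TOP) tract, through which their translation responds to growth signals. H3K36me3 is placed along transcribed gene bodies by SETD2, which travels with RNA polymerase II. H3K36me2 is placed more broadly, largely by NSD1 and NSD2. The K27 marks are placed by PRC2, whose catalytic subunit is EZH1 or EZH2; H3K27me3 marks silenced genes, and H3K27me1 is known for its presence in active genes.

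The study measured 5 histone marks by chromatin immunoprecipitation and sequencing (ChIP-seq) in the pluripotent mouse embryonic stem cell line E14, in 18 libraries forming 9 groups of 2. All cells were kept in 2i/LIF medium, which holds them undifferentiated with inhibitors of GSK3 and MEK and the cytokine LIF, and the medium carried light, medium or heavy isotope forms of arginine and lysine. Untreated cells gave 10 libraries without spike-in, 2 for each of H3K36me3, H3K36me2, H3K27me3, H3K27me2 and H3K27me1. Quantitative ChIP-seq gave the other 8, for H3K27me3 and H3K36me2, from cells kept for 7 days with 10 µM EPZ-6438, an EZH2 inhibitor, or with an equivalent volume of its solvent DMSO, and with Drosophila S2 chromatin added at 0.05% of the total chromatin. The labels call the members of a group replicates without saying whether they were separate cultures, so the p-values measure only the spread between these libraries, which may be technical. Each library sums a population, so a mark on fewer cells and a lower level in each cell cannot be told apart.

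Reads summed over all windows, in M (1000000 reads), came to 22.9 to 67.5 M in the untreated libraries, 21.6 and 27.9 M for H3K27me3 after DMSO, 0.992 and 1.78 M for H3K27me3 after the inhibitor, and 50.5 to 112 M for the quantitative H3K36me2 libraries. Over 9 pluripotency genes the median H3K36me3 body level was 6.11 times the genome mean and the median H3K27me3 level 0.0834 times; over 12 genes of other lineages the values were 1.92 and 5.36. Dppa5a was the pluripotency gene lowest in H3K36me3, at 1.25 times, and Esrrb the highest in H3K27me3, at 2.39 times.

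Of the 72 genes, 52 have a strand and a start in the RefSeq promoter table (GRCm38.p6), as have 16457 of all genes. Comparisons that need a start were made on these. The other 20 enter the body and flank levels only.

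The letters around the start are shown for 8 members, since every comparison with the start below is placed on these positions and since the TOP tract is the feature this family is known for. Each line runs 5′ to 3′ from 10 bases before the start to 15 bases from the start on, with a pyrimidine tract that met the search in capitals. The sequences are from RefSeq, GRCm38.p6, and lie at chr7:45128731-45128755 on the minus strand for Rpl13a, chr14:18270972-18270996 on the minus strand for Rpl15, chr2:39005117-39005141 on the minus strand for Rpl35, chr7:141447641-141447665 on the plus strand for Rplp2, chr4:86857353-86857377 on the minus strand for Rps6, chr17:27635230-27635254 on the minus strand for Rps10, chr5:115559457-115559481 on the plus strand for Rplp0 and chr9:120127756-120127780 on the plus strand for Rpsa.
Rpl13a: cctgcgacaagaCCTCCTCCTTTCC
Rpl15: agaaagCCTTCTTCCTTTCCTCTgg
Rpl35: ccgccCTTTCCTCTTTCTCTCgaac
Rplp2: cagcgtCTTCCTTTCgccgccggac
Rps6: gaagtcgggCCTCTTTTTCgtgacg
Rps10: gcgcacgCCCCTTCCTTTCCagcct
Rplp0: cgggtttcgaggaccgcctggttct
Rpsa: ttatttaaggacgtcatttccggcc
The first 6 carry a tract at this start and the last 2 do not. The start is the most upstream one of a gene in the RefSeq promoter table, so a tract at another start would be missed. A tract was counted where a C followed by at least 4 pyrimidines began within 5 bases of the start, on the coding strand only. It was found at 25 of 52 members (48.1%) and at 19.1% of all 16457 starts.

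Other motifs were searched on both strands of the 300 bases around each start. CCGGAAG, the core bound by ETS factors, was present at 21 of 52 members (40.4%; 12.3% of all starts), and ATGGCG, the core bound by YY1, at 16 (30.8%; 11.4%). GGGCGG, the Sp1 box, was present at 30 (57.7%; 47.3%), CACGTG, the E box, at 5 (9.62%; 7.97%), and TATAAA, the TATA box, at 4 (7.69%; 13.5%). These 5 motifs share no full copy of one another. The CpG ratio, observed over expected, had a median of 0.917 in the members and 0.597 over all starts, while the GC content was close, at 58.7% and 56.7%. A match is a description of these letters and not a measured binding site.

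In untreated cells, the ribosomal protein genes carried high H3K36me3 and low levels of the other 4 marks over their bodies. H3K27me1, H3K27me2 and H3K36me2 were at or above the all-gene median in the flanks, and H3K27me3 was below it there too. Levels are given as times the genome mean, the mean reads per 1 kb window over a gene divided by the same over all windows of that library. The median H3K36me3 body level of the 72 genes was 7.72 in the first library and 7.76 in the second, against 1.85 in both over all genes. Both libraries put the members more than 4 times above the all-gene median, and the difference between libraries was small beside it.

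H3K36me2 ran the other way, with member medians of 0.611 and 0.469 against 1.40 and 1.31 over all genes. H3K27me2 was at 0.118 and 0.122 against 1.27 and 1.25, which was 10.5-fold lower on average, and H3K27me3 was at 0.0588 and 0.0781 against 0.597 and 0.606, 8.79-fold lower. Of all 5 marks, these 2 were the lowest over the members. H3K27me1 gave 0.905 in the first library and 0.473 in the second, against 1.30 and 1.22, so the members were below the all-gene median in both, by an amount that differed between the libraries by nearly their whole value.

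The body medians of the large and the small subunit were 7.84 and 7.67 for H3K36me3, 0.555 and 0.529 for H3K36me2, 0.708 and 0.582 for H3K27me1, 0.152 and 0.102 for H3K27me2 and 0.0727 and 0.0645 for H3K27me3. At the start H3K27me2 was at 0.361 and 0.181, and in the flanks H3K27me3 was at 0.555 and 0.259, both higher for the large subunit. These levels are descriptions with no test. Gene length differs between the members and the rest, so the same medians were taken over the 6751 other genes in the members' length range. There H3K36me3 was 2.05, H3K36me2 1.50, H3K27me1 1.19, H3K27me2 1.27 and H3K27me3 0.799. Among the 2848 of these whose H3K36me3 was at or above that of the lowest member, the medians were 5.47, 1.75, 2.02, 1.70 and 0.331. As a group these short genes were higher than the members in the other 4 marks. They were also lower in H3K36me3, so they are not matched to the members in that mark. The medians of the members themselves, taken over the 2 libraries' mean, were 7.85, 0.556, 0.689, 0.127 and 0.0655.

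**Figure D1:**
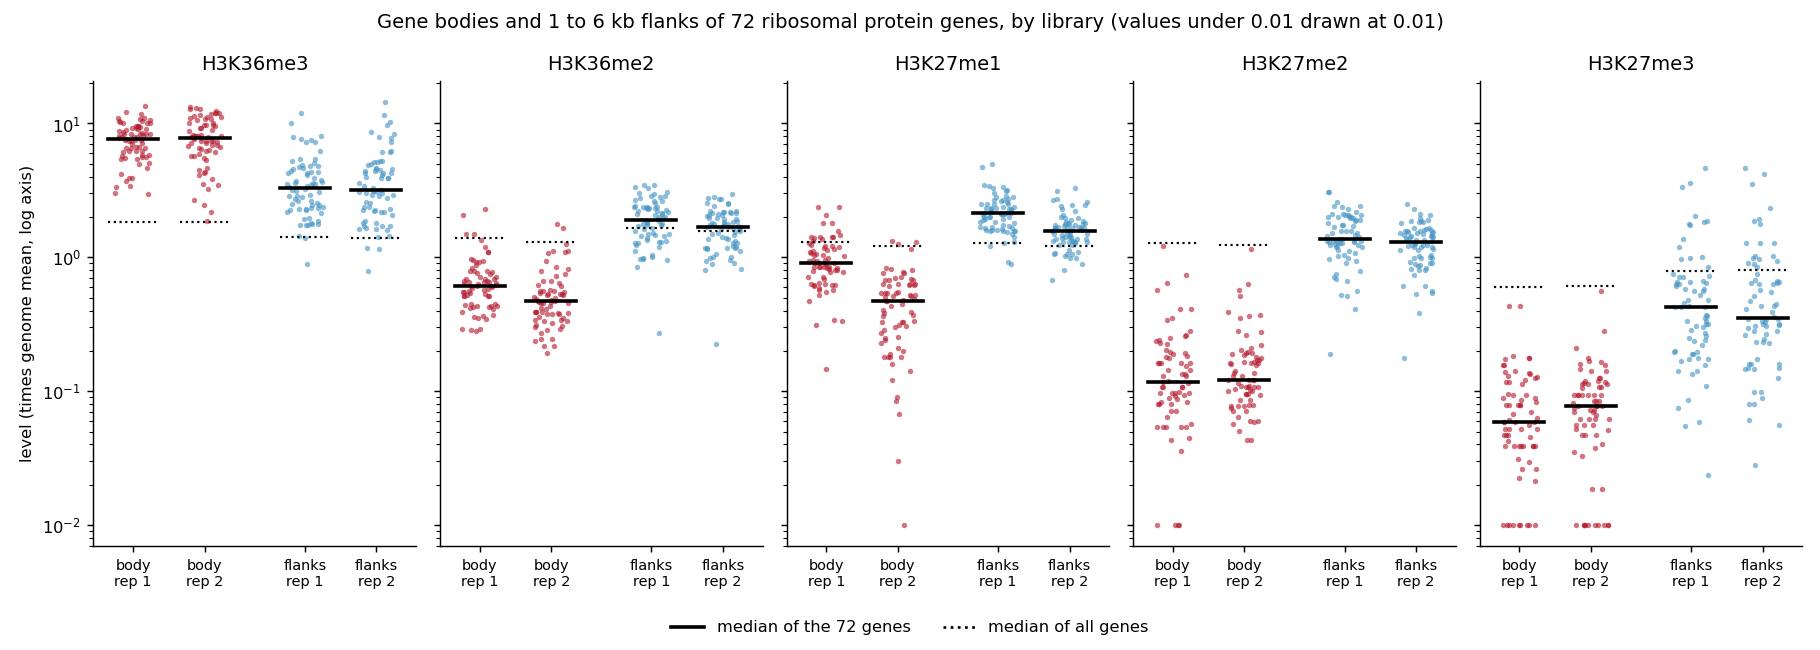
Level of each mark over the bodies (red) and the 1 to 6 kb flanks (blue) of the 72 genes, as times the genome mean on a log axis; each point is a gene in 1 library, thick lines are medians of the 72 genes and dotted lines medians of all genes. H3K36me3 bodies lie around 7.7, above the all-gene median of 1.85, while body points of the other 4 marks lie mostly below theirs and below the members' own flanks; values under 0.01 are drawn at 0.01.

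The stalk proteins form the arm of the large subunit that recruits elongation factors. Rplp0, the base of the stalk, had H3K36me3 body levels of 6.54 and 6.60 and H3K36me2 levels of 0.551 and 0.375. Rplp1 had 5.02 and 4.52 for H3K36me3 and 0.781 and 0.670 for H3K36me2, and Rplp2 had 9.39 and 9.78 for H3K36me3 and 0.613 and 0.287 for H3K36me2. All 3 were above the all-gene median in H3K36me3 and below it in H3K36me2 in both libraries.

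Among small-subunit genes, Rps19, a gene mutated in Diamond-Blackfan anaemia, stood among the 3 highest in H3K36me3, at 12.1 and 13.0. Rps10 was the highest by the mean of the 2 libraries, at 13.5 and 12.9. Rpsa, also known as the laminin receptor precursor, was at 10.1 and 11.3, and Rps3, which lies at the mRNA entry channel, at 10.1 and 11.0. Rps14, known for its loss in the 5q- syndrome, was at 8.75 and 9.66, Rps27a, made as a fusion with ubiquitin, at 5.61 and 3.56, and Rps2 at 5.59 and 5.56. Rps6, the substrate of the S6 kinases, was at 5.44 and 4.36 and was by the same mean the lowest of the 72 in H3K36me2, at 0.293 and 0.195. The lowest H3K36me3, by the mean of the 2 libraries, belonged to Rps23, at 3.39 and 1.88, which remained above the all-gene median of each library.

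Among large-subunit genes, Rpl8 was at 11.8 and 12.0 in H3K36me3 and Rpl13a, a component of an interferon-responsive translation silencing complex, at 10.5 and 13.2. Rpl3, which lies near the peptidyl transferase centre, was at 10.6 and 10.9, with the second lowest mean H3K36me2, 0.284 and 0.236. Rpl11 and Rpl5, which bind MDM2 when ribosome assembly is disturbed, were at 8.33 and 9.57 and at 6.08 and 5.74. Rpl38, known for its part in translating Hox mRNAs, was at 7.73 and 9.25, and Rpl41, the shortest protein of the family, at 5.04 and 6.26. Rpl36 and Rpl30 were low, at 3.32 and 2.45 and at 3.72 and 2.18.

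A few large-subunit genes carried more of the other marks. Rpl19 had H3K36me2 at 2.28 and 1.65, H3K27me1 at 2.06 and 1.30 and H3K27me2 at 1.21 and 1.16, over a span of which 4707 bp lie before the start used here. Rpl36 had H3K36me2 at 2.07 and 1.78 and H3K27me1 at 2.37 and 1.26. Rpl22, a regulator of T cell development as well as a ribosomal protein, had H3K27me1 at 2.38 and 1.33 with H3K36me3 at 7.43 and 8.04. All 3 were at or above the all-gene median of H3K27me1 in both libraries, where most members were below it. Rpl32 had the highest H3K27me3, at 0.431 and 0.562, and was still below the all-gene median in both libraries. Rpl15, Rplp1 and Rps23 held 0 H3K27me3 reads over the body in both. Summed over overlapping windows, median reads over a member's body were 6 and 5.5 for H3K27me3 and 15.5 and 19 for H3K27me2. A read can count more than once in these sums. Single-gene values of these 2 marks thus rest on few reads, while H3K36me3 had medians of 525 and 463.

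The reads over exons of these genes are uncertain in one respect: many have processed pseudogenes, up to 24 named ones for a single member in the annotation, and how reads that fit several places were assigned is not given in the sources used here. Across the 72 genes, the number of named pseudogenes and the H3K36me3 body level had a Spearman rho of -0.06, a description over genes that share libraries. The part of pseudogenes in the low levels was not tested.

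The body was then set against the gene's own surroundings, the stretches from 1 to 6 kb outside each end. In both libraries, H3K27me2 was lower in the body than in both flanks at 69 of 72 members, where 26.2% of all genes have that order, the exceptions being Rpl36, Rpl17 and Rps13. H3K36me2 was lower than both flanks at 64 of 72 (28.8% of all genes), H3K27me1 at 62 of 72 (16.4%) and H3K27me3 at 48 of 72 (22.4%). H3K36me3 was above both flanks in both libraries at 59 of 72 (41% of all genes) and below both at 4 of 72 (9.91%), namely Rps28, Rpl36, Rpl18 and Rps25. For Rpl36 the flank level was 11.9 and 14.4 against 3.32 and 2.45 in the body, and its flanks reach Lonp1, Micos13 and Safb.

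The flanks themselves were not low. Mean H3K27me1 in the flanks had a median of 1.85 ± 0.39 (SD, n = 2) against 1.25 ± 0.05 over all genes, H3K36me2 1.80 ± 0.16 against 1.61 ± 0.07, and H3K27me2 1.33 ± 0.05 against 1.33 ± 0.05. H3K27me3 was lower, at 0.389 ± 0.049 against 0.798 ± 0.019, and H3K36me3 higher, at 3.24 ± 0.11 against 1.40 ± 0.02. Of the 72 genes, 57 have another protein-coding gene within 6 kb, so flanks often hold parts of other genes.

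**Figure D2:**
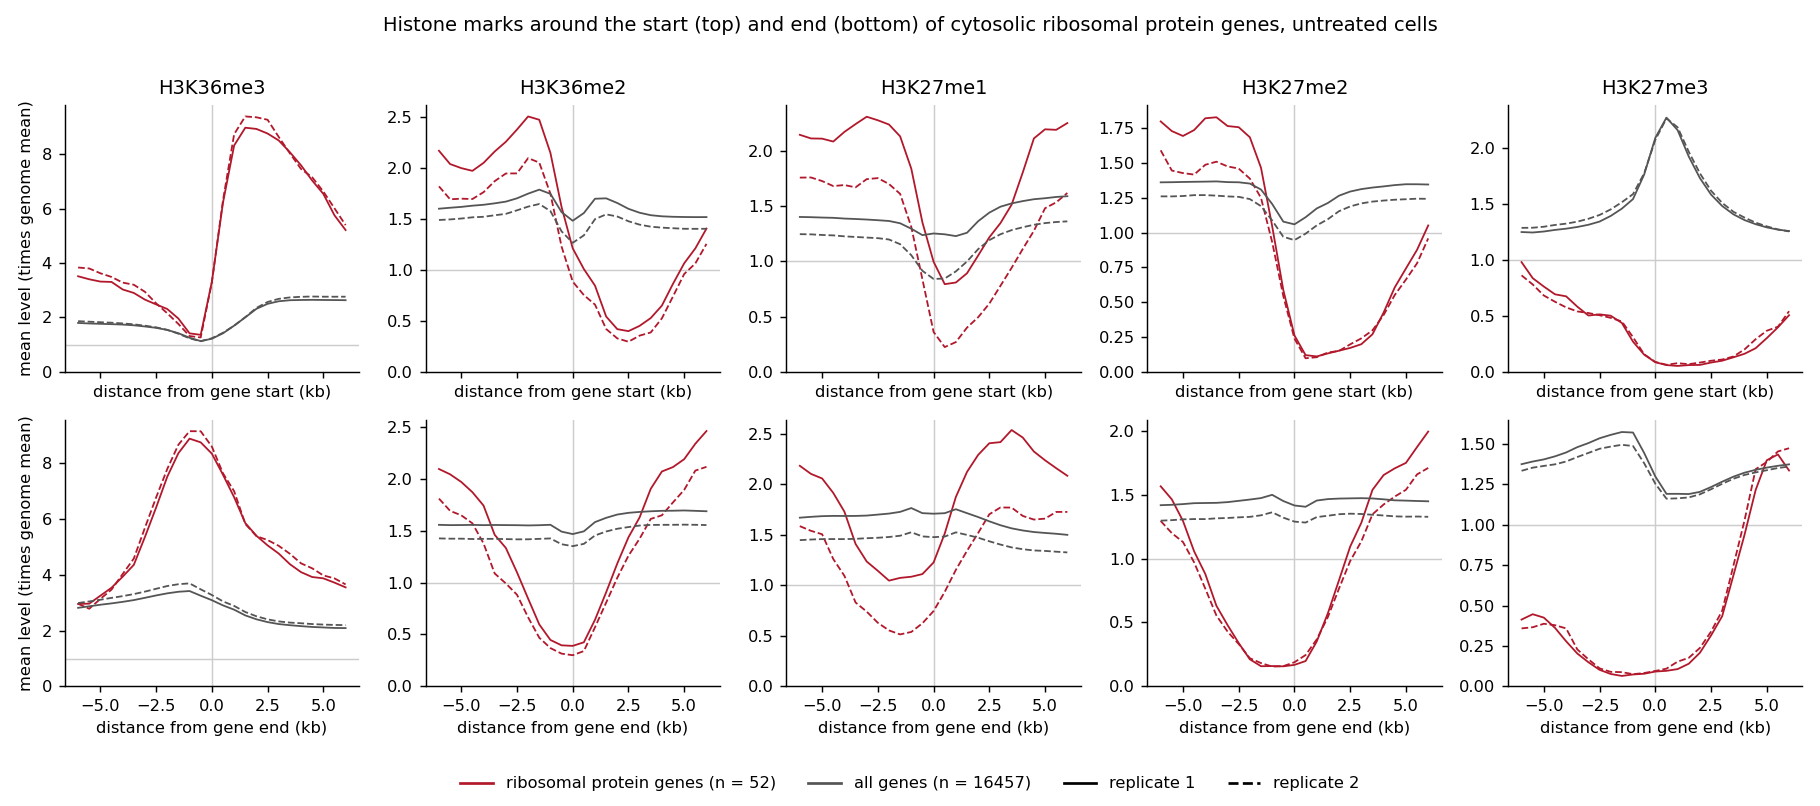
Mean level of each mark around the gene start (top) and end (bottom) in untreated cells, as times the genome mean against distance in kb, for the 52 ribosomal protein genes with a known strand (red) and all 16457 such genes (grey), with solid and dashed lines for the 2 libraries. H3K36me3 rises from 1.36 and 1.26 at 0.5 kb before the start to 8.97 and 9.39 at 1.5 kb past it, while H3K36me2 falls from 2.51 and 2.10 at 2 kb before to 0.399 and 0.296 at 2.5 kb past it.

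The averaged profiles gave the position of these changes. H3K27me2 fell from 1.68 and 1.39 at 2 kb before the start to 0.261 and 0.239 at the start, and reached its lowest values, 0.111 and 0.0975, within 1 kb past it. H3K27me1 was lowest at 0.5 kb past the start, at 0.794 and 0.224. H3K36me2 was still at 1.21 and 0.886 at the start and fell to its lowest values 2.5 kb past it.

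Within each library the body was compared with the window around the start, 1 kb on either side, as a log2 difference. The fits used limma across all genes with Benjamini-Hochberg adjustment. The 2 regions overlap, because the body includes the sequence just past the start. Of 52 members, 32 were long enough for a body taken from 1 kb past it. H3K36me3 was higher in the body at 49 of 52 members at an adjusted p under 0.05 and lower at 0, where 53.5% of all genes tested were higher. The median log2 difference was 1.06 in the members and 0.50 over all genes. Rpl22 had the largest difference, 2.52 ± 0.23 (SE, adjusted p = 3.38e-06 by limma), followed by Rpl35a at 1.82 ± 0.16 and Rps3 at 1.54 ± 0.16. Rpl22 body levels of 7.43 and 8.04 stood over start levels of 1.32 and 1.06. Rpl15, Rps2 and Rpl18 did not pass, with differences of 0.04, 0.09 and 0.36.

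H3K36me2 was lower in the body than at the start at 41 of 52 members and higher at 0, where 18.8% of all genes were lower and 18.3% higher. The median difference was -0.76 in the members and 0.02 over all genes. Rplp0 had start levels of 2.05 and 1.90 and body levels of 0.551 and 0.375, a difference of -1.73 ± 0.16 (SE, adjusted p = 0.000106 by limma). Rpl5 had 1.65 and 1.38 at the start and 0.347 and 0.313 in the body, a difference of -1.69 ± 0.13 (adjusted p = 4.9e-05), and Rpl24 followed at -1.51 ± 0.15. For these genes every body value lay below every start value. The count was 19 of 52 without the first H3K36me2 library (6.35% of all genes lower) and 26 without the second (8.31%).

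H3K27me2 was lower in the body at 25 of 52 members (8.05% of all genes) and higher at 3 (35.3%), Rps2, Rpl18 and Rpl19. Rplp0, Rpl41 and Rpl12 had the largest falls from start to body, -1.74 ± 0.16, -1.54 ± 0.25 and -1.53 ± 0.13. The span of Rpl41, chr10:128548110-128549168, lies almost wholly inside its own start window. H3K27me1 was lower in the body at 13 members (6.6% of all genes) and higher at 7 (43.1%), Rpl4, Rps2, Rps15a, Rpl35, Rpl19, Rps7 and Rpl18. The furthest on either side were Rpl41 at -1.53 ± 0.25 (-2.23 without the first library and -0.84 without the second) and Rpl18 at 0.84 ± 0.16. These standard errors are shared by all marks of a gene and do not measure the spread of H3K27me1 alone. Without the second H3K27me1 library 7 members were called, 3 higher (20.5% of all genes) and 4 lower (3.71%), and without the first H3K27me2 library 17 were called for that mark, 1 higher (19.6%) and 16 lower (2.25%). For H3K27me2, Rps2 and Rpl18 did not pass without either library, and for H3K27me1 Rpl4, Rps2, Rps15a, Rpl35 and Rpl19 did not pass without the second.

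H3K27me3 was higher in the body at 4 members (25% of all genes), Rpl37, Rpl13a, Rpl18 and Rpl19, and lower at 4 (26.6%), Rpl26, Rpl12, Rplp0 and Rpl15. A gene was kept in this fit by its reads over all marks together, so members with few or no H3K27me3 reads were tested too. The Rpl15 body held no H3K27me3 read in either library. Its body value was thus set by the pseudocount of 0.1, and its standard error was shared with the other marks. The fall was largest at Rpl26, -2.31 ± 0.17 (SE, adjusted p = 1.89e-06 by limma). With a pseudocount of 0.5, or with windows wholly inside, Rpl37, Rpl13a, Rpl18 and Rpl15 did not pass. Without the first library these 4 did not pass either, and without the second Rpl13a and Rpl15 did not. The annotated spans of Rpl19, Rpl18 and Rps2 begin 4707, 2604 and 1942 bp before the start used here, so their bodies included sequence upstream of it. With the body taken from that start, the Rpl19 difference was -0.76 for H3K27me2 and -1.18 for H3K36me2, and both passed as lower. For H3K27me1 it was -0.30 and for H3K27me3 0.14, and neither passed. Rps2 then did not pass for H3K27me1 (0.04) or H3K27me2 (0.06). On the same basis the H3K36me3 difference of Rps2 was 0.54 and that of Rpl18 was 1.01, and both passed as higher.

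**Figure D3:**
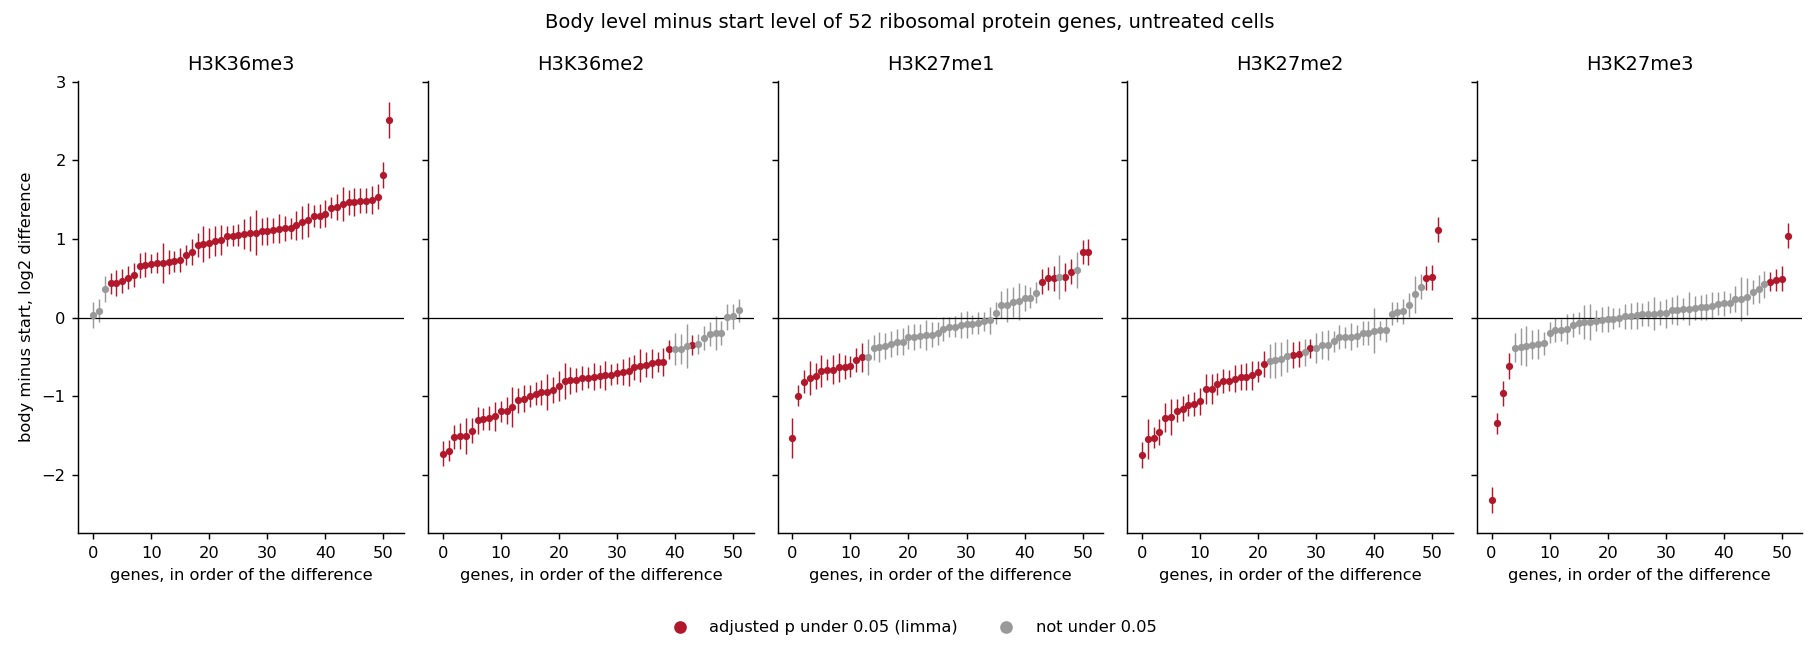
Log2 difference between the body and the start window for each of the 52 genes and each mark in untreated cells, in order of size, with bars for the standard error; red points passed an adjusted p under 0.05 in limma and grey points did not. H3K36me3 is above 0 at all 52 genes and passes at 49, H3K36me2 passes below 0 at 41 and above 0 at none, and the other marks are mixed.

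The 2 sides of the genes were compared in the same way, the downstream minus the upstream flank. H3K36me3 was higher downstream at 35 of 52 members (46.7% of all genes) and lower at 10 (23.5%). Rpl11 and Rpl6 led, each at 3.49 ± 0.19, followed by Rps3 at 3.29 ± 0.16. The 10 with the opposite order were Rps2, Rpl13, Rps13, Rps9, Rps15, Rpsa, Rps15a, Rpl12, Rpl10a and Rplp0, with Rps2 lowest at -1.72 ± 0.17. With flanks taken at the gene ends, Rps15, Rpsa, Rpl10a and Rplp0 did not pass, and neither did Rplp0 without the second library. All 10 with a known strand and no other protein-coding gene within 6 kb were higher downstream, with a median difference of 2.06, where 41.7% of the 7493 such genes tested were higher and their median was 0.20.

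For the other marks the order of the flanks was divided. H3K36me2 was higher downstream at 11 members and lower at 26 (29.3% and 29.3% of all genes), with Rpl13a lowest at -2.08 ± 0.17 and Rps15a highest at 1.92 ± 0.18. H3K27me2 was higher at 11 and lower at 23 (31.5% and 22%), with the same 2 genes at the ends, at -2.65 ± 0.17 and 2.35 ± 0.18. H3K27me3 was higher at 14 and lower at 24 (33.9% and 40%). Rps15 had by far the largest rise, 4.60 ± 0.16 (SE, adjusted p = 3.45e-15 by limma), and Apc2 and Dazap1 lie within 6 kb of it. Rpl10a followed at 3.54 ± 0.16, with Fance and Tead3 within 6 kb, and Rplp0 was lowest at -2.77 ± 0.15, with Gcn1 and Pxn within 6 kb. H3K27me1 was higher at 16 and lower at 14 (38.2% and 21%), from Rpl10a at -1.67 ± 0.16 to Rpl11 at 1.61 ± 0.19. Members called fell when 1 library was left out, as did calls over all genes. H3K36me2 fell to 23 without its first library (40.5% of all genes, 58.6% with both), and H3K27me2 to 22 without its first (31.9% and 53.5%). H3K27me1 fell to 21 without its first (10 higher, 11 lower; 42.6% of all genes, 59.2% with both) and to 19 without its second (43.6%).

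The authors' peak lists described the same genes in another way. No member had any base of its body in an H3K27me3 peak, where 45.8% of all genes had one, and 0 of 52 starts lay in one (31.6%). H3K27me3 peaks came within 6 kb of 24 of the 72 (59.1% of all genes). An H3K27me2 peak covered at least 50% of the body at 0 of 72 (44.5%) and touched the body at 4, Rpl17, Rpl19, Rpl22 and Rpl38 (63.4%), while 60 of 72 had one within 6 kb (74.7%).

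An H3K36me2 peak covered at least 50% of the body at 6 of 72, Rpl18, Rpl19, Rpl36, Rpl38, Rps21 and Rps27 (49.9%), touched it at 20 (70.4%) and held the start at 14 of 52 (52.3%). An H3K27me1 peak covered at least 50% of the body at 7 of 72 (42.2%), and touched it at 18 (64.7%). Within 6 kb, 67 and 70 members had a peak of these 2 marks (78.2% and 73.7%). The bodies were thus rarely in peaks of the 4 marks while peaks lay near most of them for 3 of the 4. Touching a peak depends on body length, and the members are shorter than most genes. The shares of all genes are not matched for length.

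H3K27me3 over the ribosomal protein genes was low after DMSO and lower after EPZ-6438. On the spike-in scale, which is reads times a factor deposited in the tracks per library, the median body level of the 72 genes was 6.93 and 5.43 after DMSO and 0.165 and 0.132 after the inhibitor. The arms were far apart, with a ratio of 41.6. Over all genes the median went from 29.4 ± 7.1 to 0.113 ± 0.027 (SD, n = 2), a ratio of 260, and the genome mean fell 534-fold. Over bodies the members thus started below the all-gene median and ended slightly above it. Median reads over a member's body in the inhibitor libraries were 5.5 and 8. At the start the inhibitor medians were 0.1815 and 0.173 in the members, against 0.1815 and 0.124 over all genes.

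Both inhibitor libraries were below both DMSO libraries at 71 of 72 member bodies (96.4% of all genes). With limma, 68 of 69 members tested were lower at an adjusted p under 0.05, where 99.7% of all genes tested were lower, so a call says little about these genes as against others. The 3 remaining members had under 10 reads and were not tested. Rps12 was the 1 tested member that did not pass, with levels of 2.97 and 0 after DMSO and 0.0605 and 0.173 after the inhibitor (-0.84 ± 0.54, adjusted p = 0.161). Its arms overlapped. Rps12 passed with a pseudocount of 0.1, with the replicate block, with limma-voom and without the second DMSO library (-1.83, adjusted p = 0.00103 by limma). With that pseudocount, the block or limma-voom, 99.9% to 100% of all bodies tested passed too. At the start, 47 of 51 tested members were lower (98.2% of all genes), and Rps12, Rpl4, Rpsa and Rpl37 did not pass. With limma-voom all 51 passed, as did 15332 of all 15337 genes tested. Rpsa also passed with the replicate block and without the first DMSO library (-2.12, adjusted p = 0.00671 by limma), and Rpl37 without the second (-1.84, adjusted p = 0.00821), while Rps24 lost its call without the first inhibitor library (-1.11, adjusted p = 0.16).

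Rpl32 had the largest fall, from 60.4 and 34.3 to 0.161 and 0.281 (-5.25 ± 0.31 SE on the log2(level + 1) scale, adjusted p = 1.81e-07 by limma). Rpl19 went from 34.2 and 24.4 to 0.272 and 0.142 (-4.63 ± 0.26), and Rpl13 from 18.8 and 8.43 to 0 and 0.215 (-3.63 ± 0.36). For these 3 genes the DMSO values stood well apart from the inhibitor values. The smallest falls that passed were those of Rpl5, from 3.15 and 0.991 to 0.114 and 0.0349 (-1.42 ± 0.35), and Rpl9, from 3.96 and 0.562 to 0.161 and 0.198 (-1.24 ± 0.47, adjusted p = 0.0299). With windows wholly inside Rpl9 did not pass (-1.04, adjusted p = 0.133). Its estimate was -0.40 without the first DMSO library and -2.07 without the second, and that of Rpl5 was -0.89 without the first. Rplp0 went from 13.2 and 5.62 to 0.484 and 0.077, and Rps19 from 11.9 and 11.1 to 0.145 and 0.168. The added 1 holds back the fitted changes of such low levels.

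Relative to each library's own genome mean the order was reversed. The mean over the 72 bodies was 0.186 and 0.178 times the genome mean after DMSO and 2.12 and 2.07 times after the inhibitor. Both inhibitor libraries were above both DMSO libraries at 63 of 72 members (47.7% of all genes) and below at 0 (29.1%). Scaled by read totals instead of the spike-in factor, limma called 51 of 69 members higher (35.9% of all genes) and 0 lower (11.3%). In simulated data that fit gave nearly as many false calls as true ones, so these calls are uncertain. Rpl7a at 3.54 ± 0.31 and Rpl41 at 3.20 ± 0.30 were among the highest. At the start it called 0 of 51 on that scale, with 32 at an unadjusted p under 0.05, and 0 of 15337 over all genes, with 5342 at an unadjusted p under 0.05.

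These relative values rest on few reads. Summed over overlapping windows, so that a read can count more than once, the inhibitor libraries held 418 and 662 reads over all 72 bodies. Single genes had 0 to 25, and 7 and 2 members had no read. The spike-in ratio and the relative one use the same reads and differ only in the factor per library. What the remaining reads represent was not tested.

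**Figure D4:**
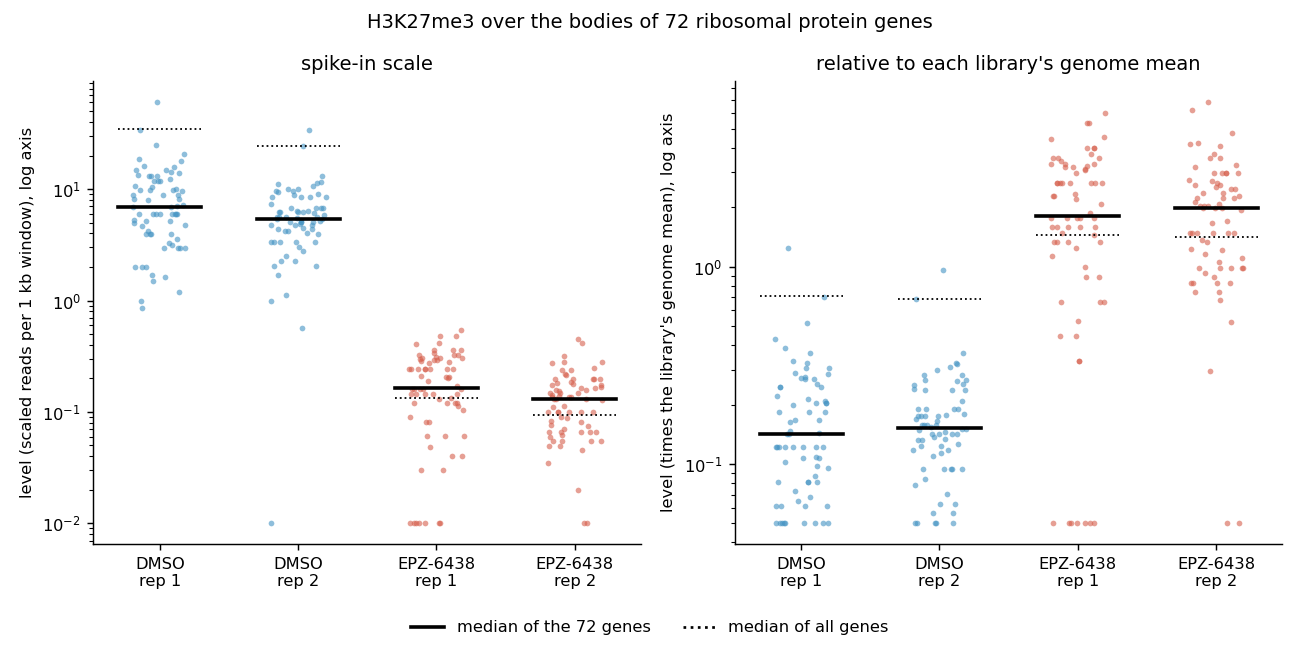
H3K27me3 over the bodies of the 72 genes in the 4 quantitative libraries, on the spike-in scale (left) and relative to each library's genome mean (right), both on log axes; each point is a gene, thick lines are medians of the 72 genes and dotted lines medians of all genes. On the left the member medians go from 6.93 and 5.43 after DMSO to 0.165 and 0.132 after EPZ-6438, and on the right they go up; values under 0.01 (left) or 0.05 (right) are drawn there.

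H3K36me2 over the same genes showed no change that passed. The median body level on the spike-in scale was 209 and 213 after DMSO and 216 and 239 after the inhibitor. With limma, 0 of 72 bodies and 0 of 52 starts passed, and 0 members had an unadjusted p under 0.05 in either; limma-voom also called 0 and 0. Over all genes, 0.4% of bodies were higher and 0.0346% lower, and 0.491% and 0.0311% of starts. The estimates ran from -0.73 ± 0.52 (SE) for Rplp1 to 0.55 ± 0.52 for Rpl30 over bodies, with a median of 0.09, and from -0.57 ± 0.58 for Rps12 to 0.36 ± 0.58 for Rpl9 at starts, with a median of 0.05. With 1 library left out the body median ran from 0.02 to 0.14, while the start median changed sign: it was 0.30 and -0.23 without the first and the second DMSO library, and -0.21 and 0.31 without the first and the second inhibitor library. Rps12 at the start then ran from -0.82 to -0.32. With library totals the medians were -0.08 and -0.12 and again 0 passed, with 2 bodies and 9 starts at an unadjusted p under 0.05 (3243 of 20229 and 2697 of 16081 genes). The fit gave all members the same standard error, 0.52 over bodies and 0.58 at starts. It is a shared value and does not measure the spread of each gene. Standard errors of this size leave room for changes in either direction.

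Single members showed the spread. Rplp1 was at 310 and 233 after DMSO and at 181 and 144 after the inhibitor, and its arms did not overlap. With the replicate number as a block it was the 1 member that passed (-0.73, adjusted p = 0.0253 by limma). In that fit 0.213% of all genes were lower and 6.81% higher. Rpl5 was at 106 and 115 after DMSO and at 129 and 156 after the inhibitor, also without overlap. Rpl19, the highest member, was at 695 and 496 and then at 708 and 457, and its arms overlapped. On the spike-in scale, both inhibitor libraries were above both DMSO libraries at 16 of 72 bodies (7.33% of all genes) and below both at 5 (0.848%). Relative to the genome mean the order of the bodies leaned the other way, with 1 above (16.6%) and 5 below (36.6%). On that scale 2 of 52 starts were above (11.2%) and 18 below (39.8%).

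The quantitative H3K36me2 libraries differed by replicate. Relative to the genome mean, the mean over the 72 bodies was 0.705 in the first DMSO library and 1.03 in the second, and 0.577 and 1.05 in the inhibitor libraries, so the second library was above the first in each arm. The genome mean on the spike-in scale was 268 ± 78 after DMSO and 315 ± 126 after the inhibitor. The body-minus-start difference of H3K36me2, which cancels a factor per library, passed at 0 of 52 members and 0 of 16204 genes with limma, with 0 and 847 at an unadjusted p under 0.05. Its estimates ran from -0.28 ± 0.25 for Rpl18 to 0.53 ± 0.32 for Rps6, which ran from 0.12 to 0.93 with 1 library left out.

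**Figure D5:**
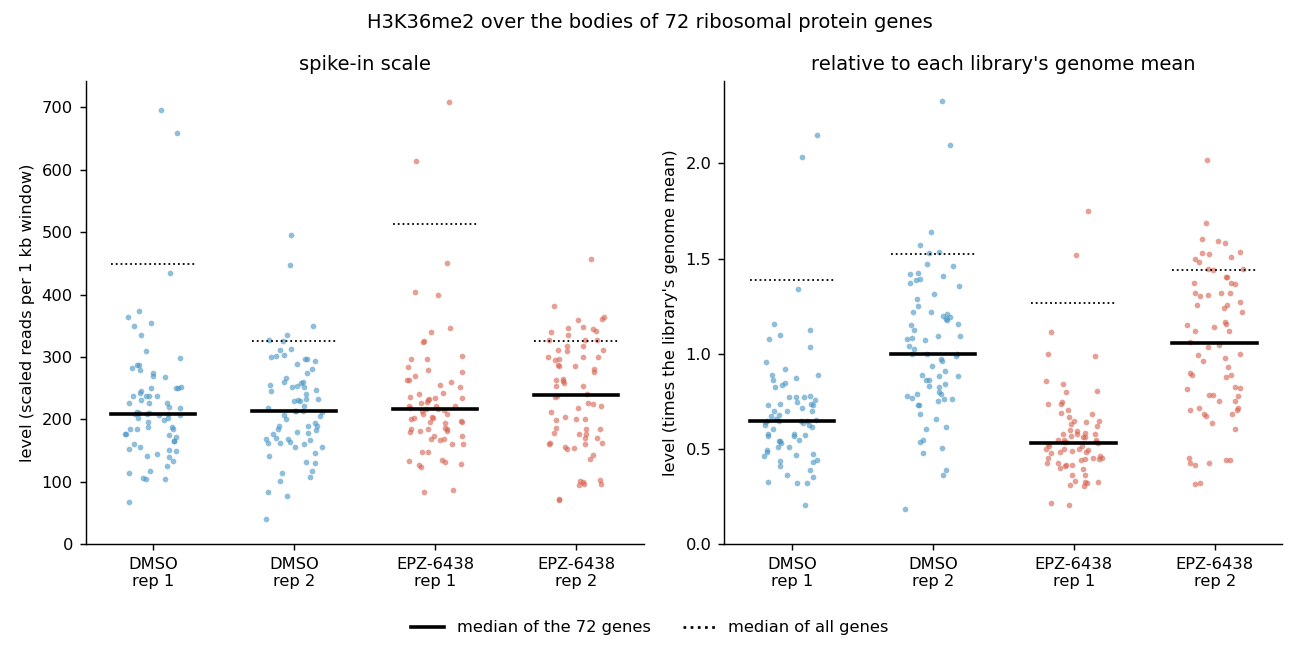
H3K36me2 over the bodies of the 72 genes in the 4 quantitative libraries, on the spike-in scale (left) and relative to each library's genome mean (right), on linear axes; each point is a gene, thick lines are medians of the 72 genes and dotted lines medians of all genes. The member medians on the left are 209, 213, 216 and 239, and on the right the second library of each arm lies above the first.

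Other genes of the translation apparatus are given from lists chosen by function. Over 38 elongation and initiation factors the median H3K36me3 body level, averaged over the 2 libraries, was 6.82, over 37 ribosome biogenesis factors 7.24 and over 78 mitochondrial ribosomal protein genes 5.20, against 7.74 in the cytosolic ribosomal protein genes. Their H3K27me1 body medians were 1.54, 2.42 and 2.31 against 0.689, and those of H3K27me2 0.314, 0.751 and 1.13 against 0.120. For H3K27me3 they were 0.0775, 0.116 and 0.152 against 0.0685, and for H3K36me2 0.586, 0.907 and 1.26 against 0.540. Elongation and initiation factors were thus close to the members in H3K27me3 and H3K36me2. The 9 pluripotency genes were at 0.622, 0.173, 0.0746 and 0.693 in the same order of marks. H3K27me1 was higher in the body than at the start at 18 of 29, 25 of 30 and 49 of 69 genes of the 3 lists and lower at 1, 0 and 1 (43.1% and 6.6% of all genes), where the members had 7 higher and 13 lower of 52. H3K36me2 was lower in the body at 22 of 29, 15 of 30 and 11 of 69, and higher at 0, 2 and 11 (18.8% and 18.3% of all genes). After the inhibitor, H3K27me3 was lower at 37 of 38, 35 of 37 and 76 of 76 tested, near the 99.7% of all genes, and H3K36me2 passed at 0 in each list. The differences between these lists and the ribosomal protein genes were not tested.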

How the data were processed

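The members and the gene lists were chosen with earlier results of these data known. The deposited tracks hold log2 values in 1000 bp windows every 500 bp, made by the authors. Per the submitters' processing notes, Trim Galore 0.4.2, Bowtie2 2.2.6.2, SICER and the builds mm10 and dm3 were used; read extension, duplicates and multi-mapping are not given in the sources used here. Undoing the log2(1 + x) transform gave whole numbers of a single step per library in 100% of windows (tolerance 0.02), so whole reads were recovered. The step was reads per M (1000000) in untreated libraries and a factor of 0.099 to 11.1 in quantitative ones, taken as the authors' spike-in factor. Windows with at least 500 bp in a region were averaged over the gene body, the start (1 kb either side) and flanks (1 to 6 kb outside); RefSeq gave genes and starts. Neighbouring windows overlap by 500 bp, and reads crossing a window edge count in both windows. A read can thus count more than once in the read numbers given for genes, including the filter of 10 reads. No input was subtracted.

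Log2(level + 1) on the spike-in scale, or log2(level + 0.1) in untreated libraries, was fitted with limma 3.58.1 (R 4.3.3) over all genes with at least 10 reads in the libraries of a fit, with Benjamini-Hochberg adjustment. Untreated fits used all 10 libraries, with each mark as a group, and thus a shared spread. Genes named are those fixed by role, the 3 highest and 3 lowest per comparison or level, and members called against the majority; some members are not reported by name here. The authors' deposited peak lists carry a score, used only to rank peaks; a peak held a body if it covered at least 50% of it. Alternatives were another pseudocount, no read filter, stricter windows, library totals, limma-voom, a replicate block and each library left out. Fits were tested on simulated data: in the untreated and the spike-in fits, false calls made up more than the nominal share of all calls. With library totals for H3K27me3 only the largest of the changes put in was recovered, with nearly as many false calls as true ones. The calls of that fit are thus uncertain, as are calls near the threshold in the other fits.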

Additional observations from a re-analysis of the deposited data

How the results depend on the processing

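Of 162 comparison-level alternatives over 24 results, 132 kept the direction and a count within 1.5 times, counting 0 calls in both settings as kept. For untreated levels the rule was instead a value within the SD of the 2 libraries, which leaving out either library always meets. Of 901 gene-level ones over 104 results, 797 kept the direction and the side of the threshold. The call was lost in 50 and gained in 19, and 35 reversed. The scale mattered most for H3K27me3 after the inhibitor. With library totals, 51 members passed as higher over bodies and 0 passed at starts, and the estimates became 1.15 for Rpl32, 1.54 for Rpl19, 0.75 for Rpl13, 1.82 for Rpl5, 3.05 for Rpl9 and 2.48 for Rps12 over bodies, and 1.89 for Rpl12, 1.47 for Rpl22, 3.16 for Rps24, 2.98 for Rpsa and 1.74 for Rpl37 at starts, where Rpl26 stayed below 0 at -0.93 without passing. The cause was not tested, and in simulated data the library-total fit for H3K27me3 gave nearly as many false calls as true ones. For H3K36me2 library totals called 0 genes.

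The replicate numbers are shared by the DMSO and inhibitor libraries, but with 2 pairs they are only a number. Deviations of same-numbered libraries correlated at 0.10 for H3K27me3 and 0.37 for H3K36me2 over 20642 genes. With the replicate block, 1 member, Rplp1, passed as lower in H3K36me2 over bodies in place of 0. Of all genes, 1377 bodies passed as higher and 43 as lower, in place of 81 and 7 (at starts 0 in either direction in place of 84). On the recovered reads limma-voom called 1 gene there and 0 at starts, and 19641 bodies for H3K27me3. The block moved no other count of members by over 1.5 times. Members called with the block were 69 bodies and 50 starts for H3K27me3 (99.9% and 99.8% of all genes).

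For the body against the start, windows wholly inside gave 12 called members for H3K27me1 (6 higher and 6 lower; 39.4% and 5.47% of all genes), 16 for H3K27me2 (3 and 13; 36.9% and 6.7%) and 4 for H3K27me3 (1 and 3; 23.4% and 25.1%). A pseudocount of 0.5 also gave 4 for H3K27me3 (45.8% of all genes), and the 2 H3K27me1 libraries alone gave 9 (27.4%). With the body from 1 kb past the start, where 32 members were long enough, 9 were called for H3K27me1 (6 higher, 3 lower), 15 for H3K27me2, 27 for H3K36me2 and 30 for H3K36me3 (54%, 47.1%, 41.1% and 71.4% of all genes); fewer genes were tested. On that basis Rpl19 was at -0.17 for H3K27me1, -0.57 for H3K27me2 and -1.71 for H3K36me2, Rpl18 at -1.11 and Rps2 at -0.45 for H3K36me2, and Rpl15 at -0.29 for H3K36me3, which was at -0.34 with windows wholly inside. With the body from the promoter table's start, chosen after seeing the data, Rpl19 was at -0.30, -0.76 and -1.18 for these 3 marks, and Rpl18 at -0.46 and Rps2 at -0.086 for H3K36me2.

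Leaving out 1 library at a time gave 7 to 22 called members for H3K27me1 (24.2% to 47.7% of all genes), 17 to 19 for H3K27me2 (21.9% to 23.4%) and 19 to 26 for H3K36me2 (12.6% to 13.2%) in the body against the start, and 19 to 21 (42.6% to 43.6%), 22 to 24 (31.9% to 38.4%) and 23 to 28 (40.5% to 43%) for the same marks between the flanks. Calls over all genes were 49.7%, 43.4% and 37.2%, and 59.2%, 53.5% and 58.6%, with both libraries. With flanks at the gene ends Rplp0 was at 0.046 for H3K36me3. Single estimates then ran from -0.16 to 0.23 for Rpl15 (H3K36me3), -0.20 to 0.24 for Rpl18 and -0.019 to 0.034 for Rpl19 (H3K36me2, body against start). For H3K36me2 after the inhibitor they ran from -0.14 to 1.23 for Rpl30 over the body, and from -0.13 to 0.84 for Rps24 and -0.98 to 0.19 for Rps6 at the start. The change of body minus start ran from -0.073 to 0.83 for Rpl11, -0.60 to 0.031 for Rpl18, -0.25 to 0.015 for Rpl19 and -0.33 to 0.071 for Rpl9. An arm left with 1 library was assumed to vary like the others.

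Among members with no other protein-coding gene within 6 kb, also chosen after seeing the data, all 10 tested were called between the flanks for H3K36me3 (10 higher; 62.4% of all such genes called) and H3K36me2 (4 higher, 6 lower; 55.2%), and 6 for each of H3K27me1 (5 and 1; 55.9%), H3K27me2 (2 and 4; 48.2%) and H3K27me3 (1 and 5; 67.8%). The median over windows moved the member medians to 0.086 for H3K27me3 and 8.10 for H3K36me3. Counting any shared base put 18 members in H3K27me1 peaks, 4 in H3K27me2 peaks and 20 in H3K36me2 peaks. The few H3K27me3 reads over members after the inhibitor limit every relative value there.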

Other observations

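Of the 72 genes, 27 contain snoRNA genes within their span, 56 in all and at most 5 in a single gene. Small nucleolar RNAs guide chemical modification of ribosomal RNA and are released from introns of the host transcript. The median H3K36me3 body level was 8.16 times the genome mean in the 27 hosts and 7.41 in the other 45 genes, and that of H3K36me2 was 0.492 and 0.570. Members with and without another protein-coding gene within 6 kb had like medians of H3K36me3, 7.89 over 57 genes and 7.64 over 15 genes. Across the 72 genes, gene length and H3K27me1 body level had a Spearman rho of 0.44, and H3K36me3 and H3K36me2 body levels one of 0.24. These are descriptions over genes that share their libraries, and no test was made.

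Paralogs and other ribosomal protein genes outside the naming rule, 11 found on the autosomes, had a median H3K36me3 body level of 3.18 and a median H3K36me2 level of 0.890 times the genome mean, against 7.74 and 0.540 in the 72 genes. H3K36me3 was higher in the body than at the start at 4 of 10 of them and lower at 1, where 53.5% of all genes were higher and 11.5% lower.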
